A study of Mus musculus with 7 samples.

Results

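Inflammatory monocytes that carry Saa3, Cxcl9 or Iigp1 transcripts were described here in whole mouse bone marrow profiled by single-cell RNA sequencing. A cell counted as a member when it looked like a classical (Ly6C-high) monocyte and held at least 2 transcripts of these 3 genes in sum. The transcripts were counted as unique molecular identifiers (UMIs), one for each captured RNA molecule. A classical monocyte was a cell with at least 1 UMI of Ly6c2 and at least 4 UMIs of F13a1, Fn1, Ccr2 and Ms4a6c in sum, with 2 or more of those 4 genes found. It also had under 2 UMIs of Ace, Treml4 and Cd300e (nonclassical monocytes), under 4 of C1qa, C1qb and C1qc (macrophages) and under 1% of its UMIs in Camp, Ltf and Ngp (granule-rich neutrophils). The rule found 3596 members among 54669 kept cells (6.58%), and 27.8% of the 12941 classical monocytes. Of these, 3016 carried a single hashtag antibody and could be given to a sample, 571 carried several hashtags and 9 none.

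The series title names inflammation and the plasticity of tumour cells during myeloid transformation. Marrow had been taken from spine, hips, femur and tibia, freed of red cells, marked with hashtag antibodies and pooled before loading, so 20 hashtag samples shared 7 libraries in 4 pools. Sample names give the groups HRO (6 samples, HRO.7 to HRO.12), chronic (HRO.5 and HRO.6, called TET2-mutated chronic samples in the series text), WTO (4), HRY (3) and WTY (3). HR.7 and HR.AE, whose names carry the prefix HR alone, were put in no group here. The labels give no age, strain, treatment or further genotype and do not explain the prefixes, which are therefore not interpreted. Whether the hashtags stand for different animals is not stated, so the p-values below refer to variation among hashtag samples and part of it may be technical. HRO.7 to HRO.9 shared a pool (WBM_2) with WTO.4 and HR.AE, HRO.10 a pool (WBM_3) with HR.7 and 4 WTY and HRY samples, HRO.11 and HRO.12 a pool (WBM_4) with 2 WTO samples, and both chronic samples a pool (WBM_1) with 1 sample each of WTY, WTO and HRY. Libraries held 25343305 to 95553827 UMIs. Libraries WBM_3a and WBM_3b of 1 pool shared 2078 barcodes, against 51 for the next pair of libraries, and the copy with fewer UMIs was removed from each shared pair.

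Classical monocytes leave the marrow for inflamed tissue, where they become macrophages and dendritic cells. Serum amyloid A3, the product of Saa3, is an acute-phase protein made by myeloid cells after bacterial products, IL-1, IL-6 or TNF act through NF-kB and C/EBP factors. Cxcl9, a chemokine that draws in T cells through the receptor Cxcr3, and Iigp1, a GTPase that attacks the vacuoles of parasites inside cells, are targets of interferon gamma. A cell needs only 1 of the genes to be a member. Levels below are CPM, the UMIs of a gene scaled to the same total in every sum, of counts summed over the cells of 1 kind in 1 sample. In summed counts a higher level can come from more cells with a transcript or from more transcripts per cell, which were not told apart.

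Members were found mainly in HRO marrow. The 6 HRO samples held 2877 of the 3016 members with 1 hashtag (95.4%), and HRO.7 alone held 55.2%. Of classical monocytes, members made up 86.4% in HRO.7 (1664 of 1927 cells), 84.3% in HRO.8 (461 of 547), 46.1% in HRO.10 (229 of 497), 28.1% in HRO.12 (50 of 178), 27.6% in HRO.9 (406 of 1469) and 26.2% in HRO.11 (67 of 256). HRO.7 and HRO.8 were nearly alike, HRO.10 lay between, and the exact 95% binomial intervals of HRO.9, HRO.11 and HRO.12 overlapped, from 20.9% to 35.3% (Clopper-Pearson, counting error only). The shares were 5.40% in HRO.6 (46 of 852) and 1.69% in HRO.5 (4 of 236) among chronic samples, 0% to 1.44% in WTO, 0.254% to 0.658% in HRY and 0% to 2.31% in WTY. WTO.3 had 0 of 191 cells, which at 3 counts of that total allows a share of up to 1.57%, with an exact upper limit of 1.91%. WTY.5 had 0 of 515, which allows up to 0.583% in the same way, with an exact upper limit of 0.714%. In the samples with no group the share was 6.80% in HR.7 (57 of 838) and 1.41% in HR.AE. The means over samples were 49.8% ± 28.5 in HRO (SD, n = 6), 3.55% ± 2.62 in chronic (n = 2), 0.871% ± 0.615 in WTO (n = 4), 0.512% ± 0.224 in HRY (n = 3) and 1.11% ± 1.16 in WTY (n = 3). Members were chosen by their UMIs of Saa3, Cxcl9 and Iigp1, and these cells were picked with their spread over samples known, so the shares are a description without a test. The lowest HRO sample stood above the highest sample of every other group.

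**Figure D1:**
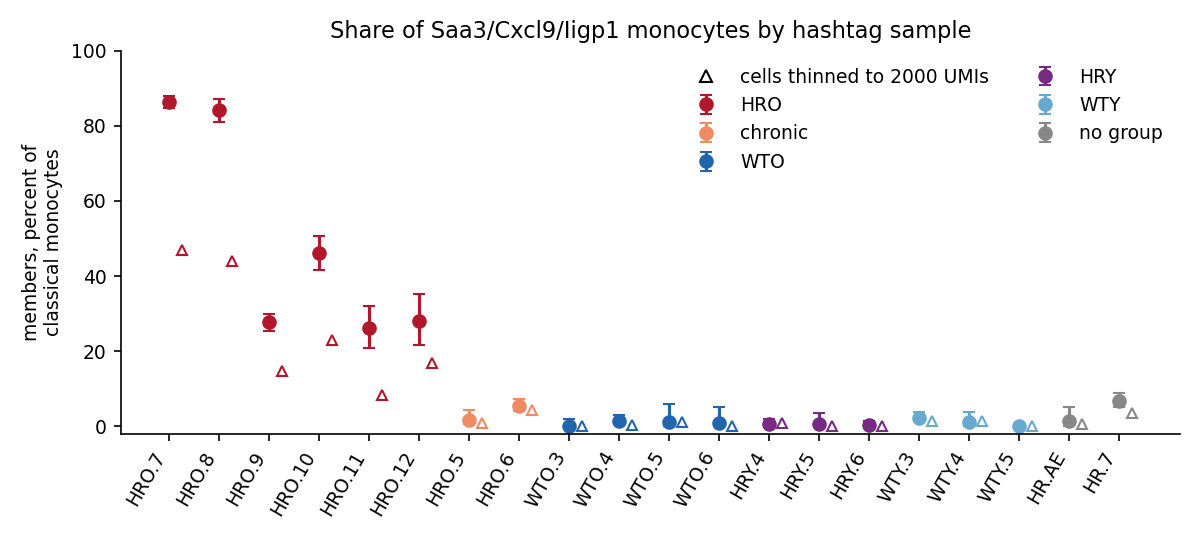
Members as a percentage of classical monocytes (y axis) in the 20 hashtag samples, coloured by group, with exact 95% binomial intervals, and the same after each cell was thinned to 2000 UMIs (open triangles). All 6 HRO samples sit above the other samples in both, with 26.2% to 86.4% of all cells and 8.27% to 47.1% of thinned cells.

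Sequencing depth moves a rule on UMIs, and HRO cells were deeper than most. Median UMIs of members were 3282 in HRO.6, 5079 in HR.7 and between 7218 (HRO.9) and 12960.0 (HRO.8) in HRO. With every cell thinned to 2000 UMIs, members made up 47.1% of classical monocytes in HRO.7, 44.1% in HRO.8, 23.1% in HRO.10, 16.9% in HRO.12, 14.7% in HRO.9 and 8.27% in HRO.11, against 4.23% in HRO.6 and at most 3.61% in any other sample. Cells of other types carried such transcripts too. Among B lineage cells, 15.02% reached 2 UMIs in HRO.7 (median 10820.0 UMIs, 293 cells), 10.99% in HRO.8, 8.33% in HRO.11 and 1.14% in HRO.9, against 86.4%, 84.3%, 26.2% and 27.6% of classical monocytes there. In B lineage cells of HRO.7 Iigp1 stood at 65.5 CPM and Saa3 at 5.26 CPM, while in members of HRO.7 Iigp1 stood at 459.6 CPM and Saa3 at 764 CPM. Iigp1 also stood above Saa3 in B lineage cells of HRO.8 (44.3 and 1.85 CPM) and of HRO.11 (25.5 and 0 CPM), but not of HRO.9 (1.74 and 8.70 CPM). B lineage cells were planned as a background from free RNA. Free RNA itself was not measured, and its part in the counts of B lineage cells and of members was not tested. Of C1q macrophages, 94.1% reached 2 UMIs in HRO.7 and 90.5% in HRO.8, but 7.32% in HRO.9 and 7.69% in HRO.12. Of nonclassical monocytes, 77.6% did in HRO.7, 72.7% in HRO.8, 35.8% in HRO.10, 20% in HRO.12 and 10.4% in HRO.9. Of granule-rich neutrophils, 14.8% did in HRO.7 and 14.7% in HRO.8, and 0.811% to 1.23% in the other HRO samples. In each of these cell types HRO.7 and HRO.8 stood above every other HRO sample with enough cells.

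Cells just inside and just outside the limit of 2 UMIs are described here over all HRO samples together. In them, 483 classical monocytes held exactly 1 UMI and lay just outside, 316 held exactly 2 and lay just inside, and 1393 held 10 or more. Ly6i, a Ly6 surface antigen, stood at 45.5 CPM just outside, 57.5 CPM just inside and 225 CPM in cells with 10 or more UMIs, and at 23.6 CPM in cells with none. Lpl, the lipoprotein lipase gene, stood at 73.2, 84.6, 179 and 28.4 CPM in the same order. The marker Cxcl10 stood at 19.6, 21.4, 250.5 and 17.3 CPM, so it was clearly higher only in cells with 10 or more UMIs. Cd38 stood at 37.3, 29.2, 60.3 and 30.7 CPM and was lower just inside than just outside. These levels pool samples that differ in their shares of members and in their levels, and the part of the samples' makeup in them was not tested.

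The members were not 1 kind of cell across samples. In HRO.9 and HRO.12 nearly all carried Saa3 without Cxcl9 or Iigp1, 392 of 406 cells and 48 of 50, and in HRO.6 it was 43 of 46. In HRO.7, 833 of 1664 members carried Cxcl9 or Iigp1 without Saa3, 769 carried both kinds and only 62 Saa3 alone, and in HRO.8 the counts were 224, 217 and 20 of 461. HRO.10 leaned to Saa3 alone, with 161 of 229 members and 54 with both. HRO.11 and HR.7 were mixed, with 25 Cxcl9/Iigp1, 15 double and 27 Saa3 cells in HRO.11 and 24, 7 and 26 in HR.7. Summed levels over members use the same UMIs that set this split, so they describe it and do not test it. Saa3 stood between 434 CPM (HR.7) and 1779 CPM (HRO.12) in all 8 samples with at least 20 members. It did not follow the share of Saa3 alone throughout, at 764 CPM in HRO.7 and 887 in HRO.8 against 516 in HRO.11. Cxcl9 stood at 277 CPM in HRO.7 and 253 CPM in HRO.8, 60.2 in HR.7, 40.1 in HRO.11, 15.3 in HRO.6 and 11.2 in HRO.10, and at 1.58 and 1.38 CPM in HRO.9 and HRO.12. Iigp1 followed the same order at the top, with 459.6 CPM in HRO.7, 391 in HRO.8 and 268 in HR.7. HRO.7, HRO.8 and HRO.9 came from 1 pool, so the split was present within a pool.

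The transcript of interferon gamma itself was counted over all kept cells of each sample, mostly outside the members. Ifng stood at 20.3 CPM in HRO.7 and 17.2 CPM in HRO.8, where 526 of 1135 and 142 of 408 Ifng UMIs lay in T or NK cells and 17 and 8 in members. It stood at 7.74 CPM in HRO.12, 3.49 CPM in HRO.11, 1.34 CPM in HRO.9 and 0.933 CPM in HRO.10, and at most at 1.10 CPM in every sample of the other groups, HR.7 and HR.AE. HRO.7 and HRO.8, with the most Cxcl9 and Iigp1, thus had the most Ifng, while HRO.12 had more Ifng than HRO.11 with almost no Cxcl9 or Iigp1 in its members. Within T or NK cells alone the order differed: Ifng stood at 233 CPM in HRO.7, 190.2 CPM in HRO.8, 112 CPM in HRO.12, 95.7 CPM in HRO.10, 36.7 CPM in HRO.11 and 11.3 CPM in HRO.9, and at 61.97 CPM in HR.7. The value of HRO.10 rests on 8 UMIs in 33 cells. T or NK cells made up 12.1% of kept cells in HRO.12 and 1.89% in HRO.10. The part of Ifng in the makeup of the members was not tested.

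**Figure D2:**
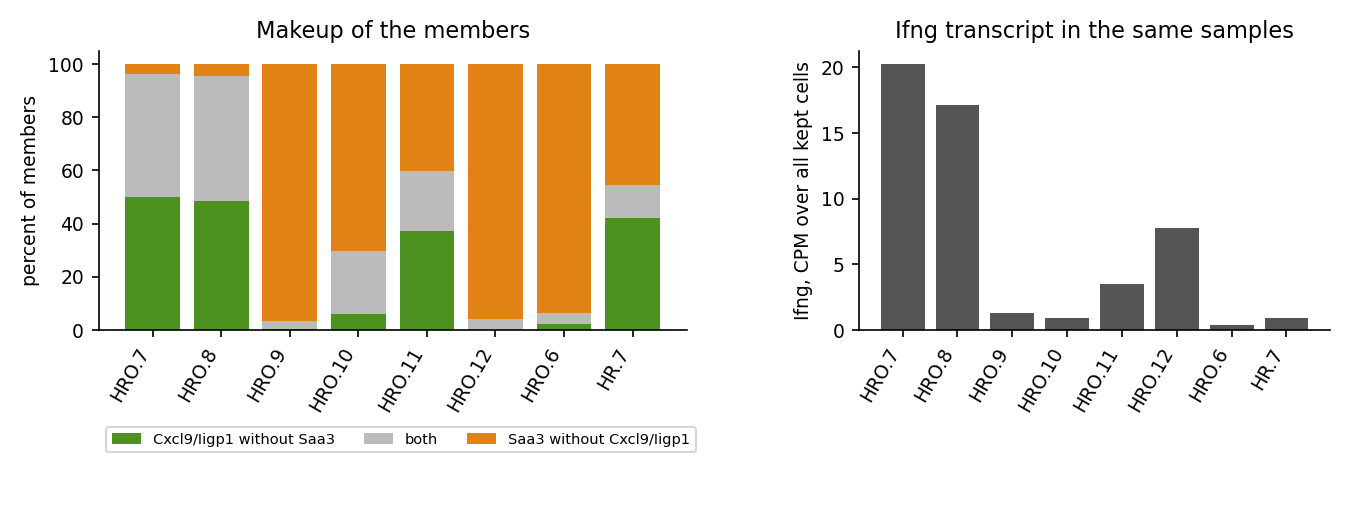
Left, percentage of members (y axis) with Cxcl9 or Iigp1 but no Saa3, with both, and with Saa3 alone, in the 8 hashtag samples with at least 20 members. Right, Ifng in CPM over all kept cells of the same samples. Saa3 alone fills 96.6% of members in HRO.9 and 3.73% in HRO.7, and Ifng is highest in HRO.7 at 20.3 CPM.

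The proximal promoters of Saa3 and Cxcl9 are shown because members were chosen by these transcripts. Each line holds 250 bases before to 50 bases after the start of the gene (RefSeq, GRCm38.p6, 5′ to 3′ along the gene). Capitals mark matches to the letters GGG, any 2 bases, TT, any base and CC (kappa B), TTCNNNGAA (GAS, the gamma-activated sequence), GAAA, any 2 bases and GAAA (ISRE, bound by interferon regulatory factors) or TTGCNNAA (C/EBP), searched on both strands, where N is any base. Saa3 lies at chr7:46715627-46715926, minus strand, and Cxcl9 at chr5:92328030-92328329, minus strand.
Saa3: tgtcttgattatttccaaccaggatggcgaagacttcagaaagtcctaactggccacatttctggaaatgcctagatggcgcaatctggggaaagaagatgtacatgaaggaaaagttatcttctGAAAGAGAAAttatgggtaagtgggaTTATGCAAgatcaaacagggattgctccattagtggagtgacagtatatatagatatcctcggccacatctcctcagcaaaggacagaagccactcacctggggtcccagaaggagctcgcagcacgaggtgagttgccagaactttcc
Cxcl9: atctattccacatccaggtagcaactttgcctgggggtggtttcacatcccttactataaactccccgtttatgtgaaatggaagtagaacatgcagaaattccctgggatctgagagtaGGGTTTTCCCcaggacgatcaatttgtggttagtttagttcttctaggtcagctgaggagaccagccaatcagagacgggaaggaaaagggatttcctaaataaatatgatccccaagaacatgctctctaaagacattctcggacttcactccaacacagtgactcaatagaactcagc
The Saa3 window holds an ISRE match from -125 to -116 and, on the other strand, a C/EBP match from -99 to -92. The Cxcl9 window holds a kappa B match from -130 to -121. These are matches of letters, not measured sites. Among 32851 mouse promoters of this length, 4.79% hold the kappa B letters, 8.30% GAS, 3.44% ISRE and 10.8% C/EBP.

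Members were compared with the other classical monocytes of the same sample, which met every part of the rule but the one on Saa3, Cxcl9 and Iigp1. Counts were summed per sample and kind of cell and tested with edgeR's quasi-likelihood test, with the sample as a block, in the 8 samples with at least 20 cells of each kind (HRO.7 to HRO.12, HRO.6 and HR.7). The 17 genes of the rule were left out of the test. Of 9618 genes, 952 were higher in members at an adjusted p under 0.05 (9.9%) and 609 lower (6.33%), and the median log2 fold of all genes was -0.01. Members were shallower than other monocytes in most samples, with median UMIs of 10877 against 15209 in HRO.12, 12167 against 14358 in HRO.11 and 7218 against 8279 in HRO.9, and in cells matched for depth 643 genes were higher and 372 lower. The counts depend on the samples: they ranged from 650 to 1045 higher and from 303 to 727 lower with 1 sample left out, lowest without HRO.9 and highest without HRO.8, and were 357 and 336 lower without HRO.10 and HRO.12.

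Interferon-inducible genes were the group that stood highest. Of 11 tested genes in a list of interferon gamma chemokines and GTPases, 10 rose, 0 fell and 1 did not pass, with a median log2 fold of 1.37. Cxcl9 and Iigp1 are also of this list, so choosing members by them favoured genes that go with them. The same holds for Saa3 and the acute-phase list below. Guanylate-binding proteins and immunity-related GTPases disrupt vacuoles that hold pathogens. Gbp5 had 5.09, 48.1 and 179.8 CPM as the lowest, median and highest of 8 samples in members, against 2.33, 12.4 and 62 CPM in other monocytes (log2 fold 1.56 ± 0.17 SE, adjusted p = 3.12e-05, edgeR, higher in 8 of 8 samples). The ranges overlap, because HRO.7 and HRO.8 stood high in both kinds of cell, but every sample moved the same way. In members of HRO.6, 1 UMI stood for 5.09 CPM. Gbp5 rested on 1 UMI there, Igtp on 3, and Lpl, Cd38 and Tk1 below on 2 each. Igtp (ENSMUSG00000078853, chr11:58199556-58207591, GRCm38, plus strand), a GTPase of the Irgm class, had 15.3, 76.7 and 141 CPM in members and 7.62, 23.9 and 55.1 CPM in other monocytes (log2 fold 1.45 ± 0.17 SE, adjusted p = 6.14e-05, 8 of 8). Irgm1, its relative, rose by 1.07 ± 0.12, Gbp2 by 1.49 ± 0.18 and Gbp2b by 1.68 ± 0.22 on the log2 scale. Gm4951, another gene of the largest rises, had 162 and 129.5 CPM in members of HRO.7 and HRO.8, against 62.4 and 44.6 CPM in their other monocytes, and 0 in members of HRO.6 (log2 fold 1.68 ± 0.25 SE, adjusted p = 3.74e-04).

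The marker Cxcl10, a chemokine of the same receptor as Cxcl9, had 0, 31 and 190.2 CPM in members and 2.01, 16.4 and 42.5 CPM in other monocytes (log2 fold 1.51 ± 0.28 SE, adjusted p = 0.00239, higher in 7 of 8). It was 0 in members of HRO.6 and nearly even in HRO.12, at 42.9 against 42.5 CPM, and its adjusted p was 0.066 without HRO.7 and HRO.8. The markers Ly6i and Lpl moved in all 8 samples: Ly6i had 12.4, 40.3 and 193 CPM in members and 9.89, 16.6 and 88.3 CPM in other monocytes (log2 fold 1.04 ± 0.12 SE, adjusted p = 3.88e-05), and Lpl had 10.2, 79.6 and 173 CPM and 3.6, 40.9 and 121 CPM (log2 fold 0.87 ± 0.14 SE, adjusted p = 7.80e-04). These markers were picked with earlier results of these data known, so their p-values are no independent evidence.

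Genes of the type I interferon response also rose: of 23 tested, 21 rose, 0 fell and 2 did not pass, with a median log2 fold of 1.01. Rtp4, an interferon-induced gene, had 6.24, 27.2 and 127 CPM in members and 2.42, 8.13 and 51.5 CPM in other monocytes (log2 fold 1.64 ± 0.16 SE, adjusted p = 8.59e-06, 8 of 8). Here HRO.6, HRO.9 and HRO.10 were the high samples, not HRO.7 and HRO.8. Ifit1, an inhibitor of viral translation, had the largest fold among called genes with at least 20 CPM in either kind of cell (log2 fold 1.88 ± 0.30 SE, adjusted p = 6.26e-04) with 0, 23.2 and 45.1 CPM in members and 0.605, 5.65 and 15.8 CPM in other monocytes, but was 0 in members of HRO.6 and rose in 6 of 8. Irf7, the master regulator of type I interferon genes, rose by 0.98 ± 0.10 in all 8 samples. Among 11 interferon regulators and feedback genes, 8 rose, 1 fell and 2 did not pass, with a median log2 fold of 0.46. The feedback inhibitors rose, Socs1 (log2 fold 1.58 ± 0.23 SE, adjusted p = 3.29e-04, 7 of 8), which damps JAK kinases under interferon gamma, and Socs3 (log2 fold 1.23 ± 0.15 SE, adjusted p = 5.38e-05, 8 of 8), which damps IL-6 signals.

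Genes of antigen presentation through MHC class II were called about as often as all tested genes, of which 9.9% rose and 6.33% fell. Of 9 tested 1 rose, the protease gene Ctss (log2 fold 0.78 ± 0.08 SE, adjusted p = 2.75e-05), none fell, and the median log2 fold was -0.21. Cd74, the invariant chain, had 76, 445 and 5539 CPM in members and 44.1, 402 and 4559 CPM in other monocytes (log2 fold 0.08 ± 0.24 SE, adjusted p = 0.872, higher in 5 of 8). H2-Ab1, an MHC class II chain, was at -0.23 ± 0.25 (adjusted p = 0.595, higher in 4 of 8). Both stood far higher in HRO.7 and HRO.8 than elsewhere, in members and in other monocytes alike. Of 18 class I and peptide processing genes, 9 rose, 0 fell and 9 did not pass, with a median log2 fold of 0.19. B2m, the light chain of class I, rose by 0.28 ± 0.04 in 8 of 8 samples.

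Receptors that sense microbes and immune complexes were higher in members. Of 13 pattern recognition receptors and C-type lectins, 12 rose, 0 fell and 1 did not pass, with a median log2 fold of 0.95, and of 11 Fc and complement receptors, 10 rose, 0 fell and 1 did not pass, with a median log2 fold of 0.81. Fpr2 (ENSMUSG00000052270, chr17:17887824-17893952, GRCm38, plus strand), a formyl peptide receptor that also binds serum amyloid A, had 55.2, 86.8 and 163 CPM in members and 16.8, 25.8 and 54.2 CPM in other monocytes (log2 fold 1.66 ± 0.13 SE, adjusted p = 2.15e-06, 8 of 8). The lowest sum of members, 55.2 CPM, lay just above the highest sum of other monocytes, 54.2 CPM. How many of all tested genes show no overlap of sums was not counted. The lectin Clec4a3 had 40.6, 185 and 232 CPM and 21, 68.1 and 129 CPM (log2 fold 1.25 ± 0.11 SE, adjusted p = 4.02e-06, 8 of 8), and HRO.7, HRO.8 and HRO.11 were the low samples in both kinds. Fcgr4, a receptor for IgG2, rose by 1.54 ± 0.16 and Fcgr1, the high-affinity IgG receptor, by 0.81 ± 0.09, each in 8 of 8. C5ar1, the receptor for the complement fragment C5a, had 56, 42.9, 41.8 and 37.6 CPM in members of HRO.6, HRO.12, HRO.10 and HRO.9, against 16.3, 17, 14 and 13.5 CPM in their other monocytes, and at most 3.23 CPM in members of HRO.7 and HRO.8 (log2 fold 1.49 ± 0.16 SE, adjusted p = 1.84e-05, 7 of 8).

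Another list joined enzymes that consume NAD, genes that control nucleotide pools and Schlafen genes (Slfn1, Slfn2, Slfn4, Slfn5 and Slfn8). Of 12 tested, 11 rose, 0 fell and 1 did not pass, with a median log2 fold of 0.89, so the count is not one of NAD enzymes alone. Cd38, which cleaves NAD on the cell surface, had 10.2, 36.7 and 124 CPM in members and 5.7, 14.1 and 67.2 CPM in other monocytes (log2 fold 1.20 ± 0.11 SE, adjusted p = 8.37e-06, 8 of 8). Bst1, its paralog, had 55.8, 80.7 and 126 CPM and 20.9, 26.1 and 69 CPM (log2 fold 1.45 ± 0.12 SE, adjusted p = 3.26e-06, 8 of 8). Slfn5, of the Schlafen family, had 47.2, 209.6 and 481 CPM and 14.2, 74.4 and 235 CPM (log2 fold 1.41 ± 0.09 SE, adjusted p = 7.18e-07, 8 of 8). HRO.10 had the most Cd38 in both kinds of cell. Nampt, the enzyme that salvages nicotinamide, was at 0.35 ± 0.12 (adjusted p = 0.0548, 5 of 8) and passed without HRO.6 (adjusted p = 0.048).

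Secreted proteins rose with the receptors. Of 6 acute-phase and scavenging genes, 4 rose, 0 fell and 2 did not pass, with a median log2 fold of 0.70, and of 14 inflammatory chemokines and cytokines, 9 rose, 1 fell and 4 did not pass, with a median log2 fold of 0.77. Lrg1, an acute-phase glycoprotein, had 311, 205, 165 and 163 CPM in members of HRO.9, HRO.12, HRO.10 and HRO.6, against 85, 38.1, 83 and 49.6 CPM in their other monocytes (log2 fold 1.64 ± 0.17 SE, adjusted p = 1.80e-05, 8 of 8). It stood at only 5.07 and 5.67 CPM in members of HRO.7 and HRO.8, so high Lrg1 went with the samples rich in Saa3 alone. Haptoglobin (Hp) rose by 0.60 ± 0.09 in 7 of 8 and lipocalin 2 (Lcn2), which binds bacterial iron carriers, by 0.45 ± 0.10 in 6 of 8. Pla2g7, the platelet-activating factor hydrolase, had 69.5, 137 and 311 CPM in members and 25.1, 41.9 and 80.4 CPM in other monocytes (log2 fold 1.76 ± 0.15 SE, adjusted p = 3.73e-06, 8 of 8). Apolipoprotein E (Apoe) had 28.4, 189 and 2286 CPM and 6.88, 74.9 and 686 CPM (log2 fold 1.71 ± 0.12 SE, adjusted p = 1.90e-06, 8 of 8), with HRO.7 and HRO.8 lowest. The neutrophil chemokine Cxcl2 rose by 1.09 ± 0.18 in 7 of 8, and Il18, the cytokine that makes T and NK cells release interferon gamma, by 1.26 ± 0.19 in 8 of 8.

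Monocyte genes outside the rule were also higher. Of 23 monocyte identity genes and transcription factors, 16 rose, 1 fell and 6 did not pass, with a median log2 fold of 0.34. Lysozyme (Lyz2) had 7219, 11042 and 19696 CPM in members and 4817, 6952 and 11818 CPM in other monocytes (log2 fold 0.77 ± 0.06 SE, adjusted p = 2.15e-06, 8 of 8). Csf1r, the receptor for the growth factor M-CSF, rose by 0.77 ± 0.09 and versican (Vcan), a matrix proteoglycan of classical monocytes, by 0.79 ± 0.09, each in 8 of 8. Of 16 immediate early and stress genes, 11 rose, 0 fell and 5 did not pass, with a median log2 fold of 0.35. Atf3, a stress-induced transcription factor, had the highest level in members of HRO.12, 235 CPM against 69.7 CPM in its other monocytes (log2 fold 1.38 ± 0.12 SE, adjusted p = 6.24e-06, 7 of 8).

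Cell cycle genes moved the other way: of 26 tested, 0 rose, 14 fell and 12 did not pass, with a median log2 fold of -0.54. Tk1, thymidine kinase of S phase, had 10.2, 43.2 and 70.9 CPM in members and 38.8, 72.7 and 103 CPM in other monocytes (log2 fold -0.72 ± 0.15 SE, adjusted p = 0.00385, lower in 8 of 8). Stmn1, a microtubule regulator of dividing cells, was at -0.71 ± 0.15 and the progenitor transcription factor gene Sox4 at -1.37 ± 0.31, both lower in 8 of 8. The progenitor receptor Flt3 fell to 0, 13.8 and 33 CPM in members, against 16.7, 23.9 and 31.5 CPM in other monocytes (log2 fold -0.78 ± 0.19 SE, adjusted p = 0.0127). Of 19 oxidative phosphorylation subunits 1 fell and none rose. Among the remaining lists, 10 of 16 NF-kB subunits and feedback genes rose (median log2 fold 0.57), 12 of 17 matrix, coagulation and protease genes (0.60), 7 of 11 lipid handling genes (0.49), 6 of 10 checkpoint ligands (0.51) and 4 of 17 glycolysis and hypoxia genes (0.09), and none of these fell.

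Transcripts of other cell types differed between the 2 kinds of cell as well. Of 16 tested neutrophil genes 7 rose and 0 fell (median log2 fold 0.39), among them Lcn2, and the list's summed CPM ranged from 6035 to 32490 in members and from 6181 to 24960 in other monocytes. Of 5 tested macrophage genes 2 rose and 0 fell (0.60), with sums from 70.9 to 2353 CPM in members and from 23.5 to 718 CPM in other monocytes. The part of these transcripts in the rise of secreted proteins and receptors was not tested. The summed CPM of 9 erythroid genes ranged from 79.3 to 11130 in members and from 51.5 to 5184 in other monocytes, and of 7 tested 4 rose, 0 fell and 3 did not pass, with a median log2 fold of 0.61. Hba-a1 (log2 fold 1.57 ± 0.41 SE, adjusted p = 0.0184, 5 of 8), Hba-a2 and Hbb-bs rose, with the widest differences in CPM in HR.7 and HRO.11. Without cells that held other types' transcripts their log2 folds were 0.16, 0.18 and 0.26 in that order, short of the threshold. The adjusted p of Hba-a1 was 0.087 without HR.7 and 0.071 without HRO.11, that of Hba-a2 0.119 and 0.103, and that of Hbb-bs 0.082 and 0.055. Hba-a1 and Hba-a2 are near-identical copies, whose counts may be split between them. The summed CPM of 17 B, plasma, T and NK genes ranged from 151 to 5852 in members and from 196 to 3427 in other monocytes, and of 6 tested 0 rose, 3 fell and 3 did not pass, with a median log2 fold of -0.97. Several of the largest falls were such genes: the T cell gene Cd3d (log2 fold -2.79 ± 0.57 SE, adjusted p = 0.00417) had 5.15 and 5.82 CPM in members of HRO.7 and HRO.8, against 61.8 and 77.8 CPM in their other monocytes, and was higher in members in 3 of 8 samples. The mast cell protease gene Cpa3 (-1.97), the B cell gene Ly6d (-1.78), Ctla2a (-1.78), the chemokine Ccl4 (-1.28) and Ptprcap (-1.21) fell too, and were lower in members of the same 2 samples. Without HRO.7, the adjusted p was 0.132 for Cpa3, 0.193 for Ctla2a, 0.259 for Ccl4 and 0.130 for Ptprcap, and without HRO.8 it was 0.121, 0.122, 0.084 and 0.103 in the same order. Ccl4 also missed the threshold without HRO.6, HR.7 or HRO.10 (0.059, 0.055 and 0.0599) and Ptprcap without HRO.10 (0.055). Ly6d missed it without both HRO.7 and HRO.8 (0.228). Nkg7, a gene of cytotoxic cells, fell by 1.32 on the log2 scale in 7 of 8. Without cells that held such transcripts, 864 genes were higher and 764 lower, and 774 of the 952 higher genes were among them.

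**Figure D3:**
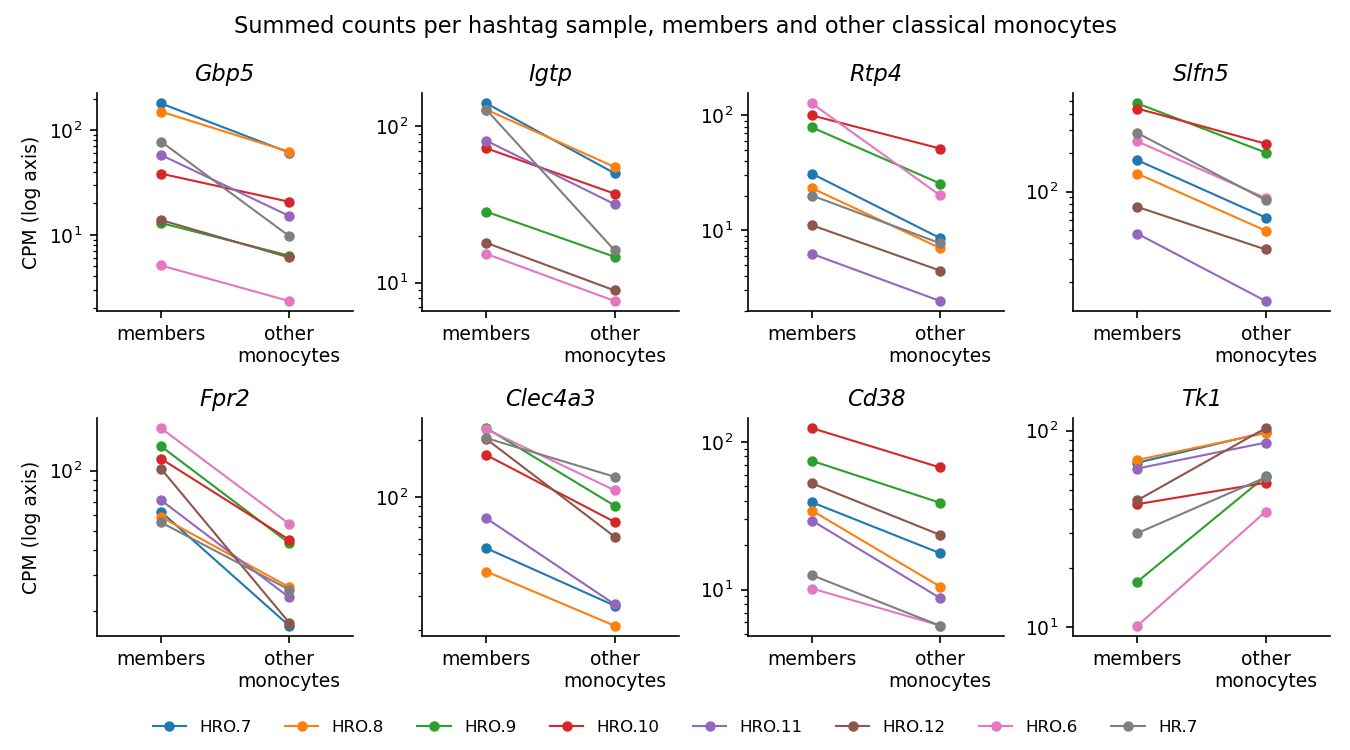
CPM on a log axis of 8 genes in members (left) and other classical monocytes (right) of each of the 8 hashtag samples, joined by sample. Gbp5, Igtp, Rtp4, Slfn5, Fpr2, Clec4a3 and Cd38 are higher in members in all 8, and Tk1 is lower in all 8. In members of HRO.6, Gbp5 rests on 1 UMI and Cd38 and Tk1 on 2 each.

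Cells at the 2 ends were then compared within samples. The Cxcl9/Iigp1 arm held members with at least 2 UMIs of Cxcl9 and Iigp1 in sum and none of Saa3, and the Saa3 arm members with at least 2 UMIs of Saa3 and none of Cxcl9 and Iigp1. Only HRO.7, HRO.8, HRO.11 and HR.7 had 20 cells of each, and the Saa3 arm of HRO.8 had exactly 20. Median UMIs per cell of the Cxcl9/Iigp1 arm and the Saa3 arm were 12330 and 11154 in HRO.7, 15121 and 13460 in HRO.8, 17271 and 10500 in HRO.11, and 4833 and 5482 in HR.7, and the part of this depth was not tested. Of 5585 genes, 133 were higher in the Cxcl9/Iigp1 arm (2.38%) and 215 in the Saa3 arm (3.85% lower in the Cxcl9/Iigp1 arm) by edgeR's quasi-likelihood test with the sample as a block, with a median log2 fold of 0.02 over all genes. Without HRO.7 the counts were 68 and 105, and without HRO.8 51 and 94. DESeq2 called 54 and 131.

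The Cxcl9/Iigp1 arm carried the interferon gamma genes. Of 11 tested, 9 rose, 0 fell and 2 did not pass, with a median log2 fold of 1.18, and of 14 type I interferon genes, 7 rose, 0 fell and 7 did not pass, with a median log2 fold of 0.70. Cxcl9 and Iigp1 belong to the interferon gamma list and set the arms, so that choice favoured genes that go with them. Igtp had 148 CPM in HRO.7, 131 in HRO.8, 105 in HRO.11 and 196 in HR.7 in the Cxcl9/Iigp1 arm, against 39 CPM in HRO.7, 20.5 in HRO.8, 33.3 in HRO.11 and 51.2 in HR.7 in the Saa3 arm (log2 fold 2.01 ± 0.20 SE, adjusted p = 7.47e-06, 4 of 4). The sums of the 2 arms did not overlap, and the share of all tested genes for which this holds was not counted. Socs1 had 48.2 CPM in HRO.7, 47.3 in HRO.8, 34.2 in HRO.11 and 30.1 in HR.7 in the Cxcl9/Iigp1 arm, against 6.28 CPM in HRO.7, 6.84 in HRO.8, 2.77 in HRO.11 and 0 in HR.7 in the Saa3 arm (log2 fold 3.11 ± 0.37 SE, adjusted p = 3.96e-05). In the Saa3 arm Socs1 rested on 5 UMIs in HRO.7, 2 in HRO.8, 1 in HRO.11 and 0 in HR.7. Irgm1 stood higher by 1.92 ± 0.22, Gbp5 by 1.37 ± 0.18, Gbp2 by 1.11 ± 0.17 and the antiviral ubiquitin-like Isg15 by 1.38 ± 0.24, each in 4 of 4. Cxcl10 stood higher by 1.40 ± 0.32 in 3 of 4, with adjusted p = 0.0107, but 0.5463 without HRO.7 and 0.109 without HRO.8.

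MHC class II genes mostly stood higher in this arm than in the Saa3 arm. Of 7 tested, 4 rose, 1 fell and 2 did not pass, with a median log2 fold of 1.12. Ciita, the master activator of class II genes, had 167 CPM in HRO.7, 137 in HRO.8, 13.3 in HRO.11 and 65.2 in HR.7 in the Cxcl9/Iigp1 arm, against 52.8 CPM in HRO.7, 41 in HRO.8, 0 in HRO.11 and 25.6 in HR.7 in the Saa3 arm (log2 fold 1.71 ± 0.22 SE, adjusted p = 1.03e-04). H2-Aa had 1993 CPM in HRO.7, 1799 in HRO.8, 405 in HRO.11 and 677 in HR.7, against 1242 CPM in HRO.7, 1023 in HRO.8, 58.2 in HRO.11 and 44.8 in HR.7 (log2 fold 1.40 ± 0.27 SE, adjusted p = 0.00391). The gap in H2-Aa was wide in HRO.11 and HR.7 and narrow in HRO.7 and HRO.8, whose Saa3 arm was itself high. H2-Ab1 stood higher by 1.30 ± 0.22 and H2-Eb1 by 1.24 ± 0.24, each in 4 of 4. Ctss was the class II list gene that stood lower (log2 fold -0.47 ± 0.10 SE, adjusted p = 0.00771), and it missed the threshold without HRO.8 (adjusted p = 0.066).

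Other large rises in this arm came from single genes of different lists. Kit, the stem cell factor receptor, had 27.7 CPM in HRO.7, 33.4 in HRO.8, 47.5 in HRO.11 and 80.2 in HR.7, against 6.28 CPM in HRO.7, 0 in HRO.8, 22.2 in HRO.11 and 12.8 in HR.7 in the Saa3 arm (log2 fold 2.09 ± 0.37 SE, adjusted p = 0.00178). Flt3, of the dendritic cell list, stood higher by 2.76 ± 0.53, Ccnd2, a cyclin of G1 phase, by 2.25 ± 0.25, Runx2, a Runt-family transcription factor, by 2.62 ± 0.31 and Cd24a, a surface antigen of precursors, by 1.98 ± 0.25, each in 4 of 4. Some of these folds rest on few UMIs in the Saa3 arm. In HRO.7, HRO.8, HRO.11 and HR.7 in order, Flt3 had 0, 0, 8 and 0 there. Kit had 5, 0, 8 and 2, and Runx2 had 5, 3, 4 and 2. Mpo, the azurophil granule peroxidase of granulocyte and monocyte precursors, had 399 CPM in HRO.7, 939 in HRO.8, 4627 in HRO.11 and 45.1 in HR.7, against 276 CPM in HRO.7, 144 in HRO.8, 1111 in HRO.11 and 32 in HR.7 (log2 fold 1.67 ± 0.25 SE, adjusted p = 4.02e-04). Mpo is of the neutrophil list, and its granule partners Prtn3 (log2 fold 0.56 ± 0.20 SE, adjusted p = 0.124, higher in 4 of 4) and Elane (log2 fold 0.85 ± 0.32 SE, adjusted p = 0.132, higher in 2 of 4) did not pass. Both tested dendritic cell genes stood higher, Flt3 and Tcf4, a transcription factor gene of plasmacytoid dendritic cells (log2 fold 1.18 ± 0.22 SE, adjusted p = 0.00318). Xcr1, Clec9a and Zbtb46 of this list were not tested. In the Cxcl9/Iigp1 arm they held 408, 227 and 147 UMIs in HRO.7, 135, 63 and 45 in HRO.8, and 0 in HRO.11 and HR.7. In the smaller Saa3 arm of HRO.7 and HRO.8 each held 1 UMI or none. The part of dendritic cells in the Cxcl9/Iigp1 arm was not tested. Spint2, a protease inhibitor, was at 2.06 ± 0.29. Klrk1, the receptor NKG2D, was at 2.03 ± 0.30 and the cytotoxic gene Nkg7 at 2.21 ± 0.31 (3 of 4). None of the 26 cell cycle genes passed in either direction. Without HRO.7 and HRO.8 together, the adjusted p was 0.123 for Flt3 and 0.088 for Kit.

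The largest fold in this arm was a globin. Hbb-bs had 0.687 CPM in HRO.7, 1.36 in HRO.8, 10030.2 in HRO.11 and 11046 in HR.7 in the Cxcl9/Iigp1 arm, against 1.26 CPM in HRO.7, 0 in HRO.8, 38.8 in HRO.11 and 441 in HR.7 in the Saa3 arm (log2 fold 5.92 ± 0.45 SE, adjusted p = 3.31e-07). It was near 0 in both arms of HRO.7 and HRO.8, so the difference rests on HRO.11 and HR.7. The summed erythroid CPM ranged from 89.6 to 21480 in the Cxcl9/Iigp1 arm and from 128 to 870 in the Saa3 arm, and the sum of 11 dendritic cell genes from 108 to 436 and from 27.4 to 147. The sums of B, plasma, T and NK genes ranged from 231 to 650 and from 234 to 363, with Cd3d and Cd3e at 0 in the Saa3 arm. The part of such transcripts in the other differences was not tested.

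Several lists stood lower in the Cxcl9/Iigp1 arm than in the Saa3 arm. All 7 tested pattern recognition receptors and lectins were lower in the Cxcl9/Iigp1 arm, with a median log2 fold of -1.39. Fpr2 had 22.4 CPM in HRO.7, 9.51 in HRO.8, 15.2 in HRO.11 and 25.1 in HR.7 in the Cxcl9/Iigp1 arm, against 156 CPM in HRO.7, 106 in HRO.8, 111 in HRO.11 and 96 in HR.7 in the Saa3 arm (log2 fold -2.90 ± 0.21 SE, adjusted p = 1.66e-07). Clec4e, the lectin Mincle that senses mycobacterial and fungal glycolipids, had 20.9 CPM in HRO.7, 13.6 in HRO.8, 22.8 in HRO.11 and 5.01 in HR.7, against 185 CPM in HRO.7, 34.2 in HRO.8, 85.9 in HRO.11 and 32 in HR.7 (log2 fold -2.59 ± 0.27 SE, adjusted p = 1.43e-05). For neither gene did the sums of the arms overlap, again without a count over all tested genes. Vcan had 108 CPM in HRO.7, 62.7 in HRO.8, 66.5 in HRO.11 and 140.4 in HR.7, against 527 CPM in HRO.7, 342 in HRO.8, 327 in HRO.11 and 601 in HR.7 (log2 fold -2.29 ± 0.12 SE, adjusted p = 2.48e-09). Lyz2 was at -1.15 ± 0.10, the transcription factor gene Cebpb at -0.71 ± 0.10 and Hmox1, which breaks down heme, at -1.94 ± 0.23, all lower in 4 of 4. Of 21 monocyte identity genes, 2 rose, 9 fell and 10 did not pass, with a median log2 fold of -0.42, and of 9 matrix, coagulation and protease genes, 0 rose, 7 fell and 2 did not pass, with a median log2 fold of -0.65. Coagulation factor F10 was at -1.46 ± 0.15, Lcn2 at -1.55 ± 0.18, Hp at -1.30 ± 0.13 and the alarmin S100a8 at -1.17 ± 0.16. Lcn2, S100a8 and the monocyte gene Chil3 are also of the neutrophil list, of which 7 of 13 tested genes were lower and 2 higher (median -0.80), with summed CPM from 3685 to 27770 in the Cxcl9/Iigp1 arm and from 7032 to 20020 in the Saa3 arm. The part of neutrophil transcripts in these differences was not tested. Of 7 Fc and complement receptors, 3 were lower and 4 did not pass (median -0.49). Pilra, an inhibitory receptor, was at -2.03 ± 0.26, Mcemp1 at -1.72 ± 0.14 and Wfdc21 at -1.85 ± 0.29. Of 7 chemokines and cytokines, 0 rose, 4 fell and 3 did not pass, with a median log2 fold of -0.67, among them Ccl6 (-1.07 ± 0.12) and Cxcl2 (-1.55 ± 0.26, adjusted p = 0.084 without HRO.7).

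Ly6i and Lpl were lower in the Cxcl9/Iigp1 arm. Ly6i was at -1.07 ± 0.17 (higher in the Cxcl9/Iigp1 arm of 1 of 4, adjusted p = 0.061 without HRO.7) and Lpl at -1.01 ± 0.17 (1 of 4, adjusted p = 0.0503 without HRO.8). The NAD and Schlafen list was split, with 2 genes higher, 2 lower and 6 short of the threshold. Slfn5 was at 0.79 ± 0.17 (3 of 4) and Bst1 at -0.85 ± 0.19 (0 of 4). Slfn5 missed the threshold without HRO.7 (adjusted p = 0.142) or HRO.8 (0.057), and Bst1 without HRO.8 (0.061). B2m did not pass (-0.08 ± 0.09).

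**Figure D4:**
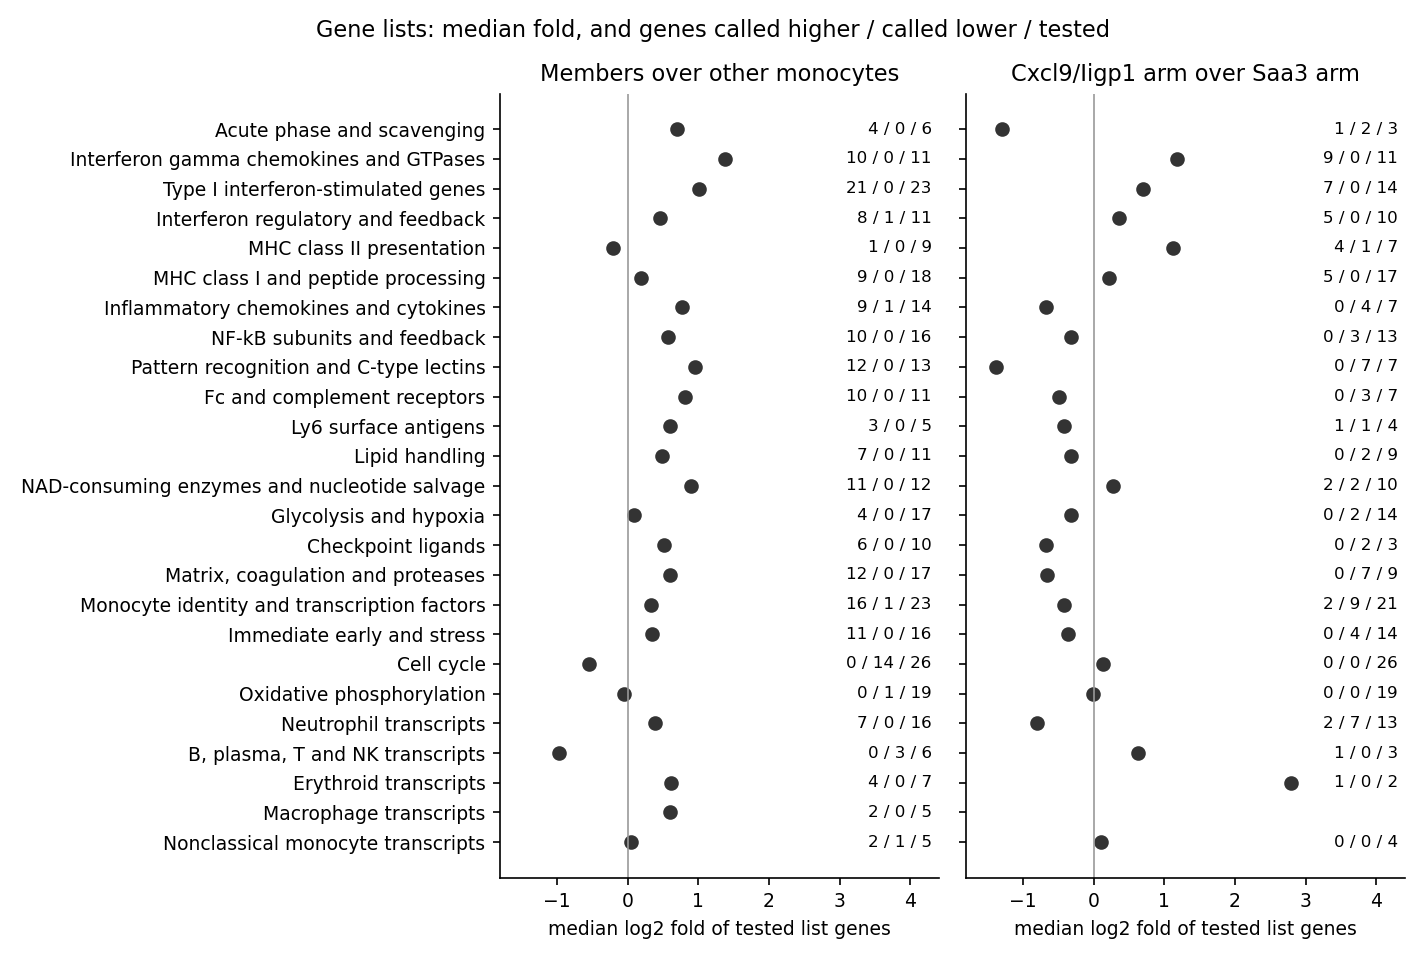
Median log2 fold (x axis) of the tested genes of each list (rows), for members over other classical monocytes (left, 8 samples) and the Cxcl9/Iigp1 arm over the Saa3 arm (right, 4 samples), with the numbers called higher, called lower and tested. Lists with at least 5 tested genes on the left are drawn, and on the right those with at least 2. Interferon gamma genes lie right of 0 in both panels, and pattern recognition genes lie right of 0 on the left (median 0.95) and left of 0 on the right (-1.39).

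The promoters of Igtp, Clec4e and Fpr2 are shown because these genes separated the arms without being part of the rule, with the same layout, letters and capitals as above. Igtp stood higher in the Cxcl9/Iigp1 arm and lies at chr11:58199306-58199605, plus strand. Clec4e and Fpr2 stood higher in the Saa3 arm and lie at chr6:123289822-123290121, minus strand and chr17:17887574-17887873, plus strand.
Igtp: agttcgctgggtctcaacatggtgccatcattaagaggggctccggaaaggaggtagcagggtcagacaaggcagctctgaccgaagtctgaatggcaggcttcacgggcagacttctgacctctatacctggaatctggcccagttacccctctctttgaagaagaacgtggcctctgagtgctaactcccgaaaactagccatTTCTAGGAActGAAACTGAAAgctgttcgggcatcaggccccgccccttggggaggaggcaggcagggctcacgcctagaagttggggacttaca
Clec4e: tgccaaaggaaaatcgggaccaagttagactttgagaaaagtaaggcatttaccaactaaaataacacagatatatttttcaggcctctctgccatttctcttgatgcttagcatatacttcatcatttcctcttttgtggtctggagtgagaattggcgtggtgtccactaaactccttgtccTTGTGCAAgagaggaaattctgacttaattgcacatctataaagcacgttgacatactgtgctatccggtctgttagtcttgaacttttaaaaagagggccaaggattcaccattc
Fpr2: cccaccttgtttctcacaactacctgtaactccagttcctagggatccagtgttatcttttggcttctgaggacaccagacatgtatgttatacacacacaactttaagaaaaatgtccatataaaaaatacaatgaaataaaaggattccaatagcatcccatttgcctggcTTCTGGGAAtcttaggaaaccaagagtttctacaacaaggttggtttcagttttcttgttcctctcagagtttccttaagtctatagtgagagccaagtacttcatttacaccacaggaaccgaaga
The Igtp window holds a GAS match from -45 to -37, whose letters match on both strands, and next to it an ISRE match from -34 to -25. The Clec4e window holds a C/EBP match from -66 to -59 on the other strand, and the Fpr2 window a GAS match from -77 to -69. GAS letters are thus found in a gene of either arm. Of genes higher in the Cxcl9/Iigp1 arm with a promoter, 17 of 105 held the ISRE letters (16.2%), 16 GAS (15.2%), 15 C/EBP (14.3%) and 11 kappa B (10.5%). Of genes lower in that arm, 12 of 160 held ISRE (7.50%), 22 GAS (13.8%), 30 C/EBP (18.8%) and 9 kappa B (5.63%). Over all tested genes with a promoter the shares were 4.36%, 8.21%, 10.1% and 6.35% in the same order. Of genes higher in members than in other monocytes, 90 of 756 held ISRE (11.9%), and of genes lower 8 of 487 (1.64%), against 4.18% of all tested. The other letters were also more frequent among higher genes. In higher, lower and all tested genes in order, C/EBP stood at 14.8%, 7.60% and 9.995%. GAS stood at 11.6%, 8.01% and 8.26%, and kappa B at 8.33%, 5.54% and 6.43%.

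Each arm was also set against the other classical monocytes of its own samples, a comparison added after the data were seen. The Saa3 arm, in 8 samples, had 1115 of 9080 genes higher (12.3%) and 1085 lower (11.9%). The Cxcl9/Iigp1 arm, in 4 samples, had 60 of 9969 genes higher (0.602%) and 24 lower (0.241%), and 645 genes at an unadjusted p under 0.05. The 2 comparisons share the other monocytes of HRO.7, HRO.8, HRO.11 and HR.7. HRO.6, HRO.9, HRO.10 and HRO.12, where most members held Saa3 alone, enter only that of the Saa3 arm. The tested genes differ too, with 15 and 9 in the interferon gamma list and 10 and 12 in the pattern recognition list. Values set side by side thus mix arm, samples and genes, and the part of each was not tested. In the interferon gamma list the median log2 fold over other monocytes was 1.54 in the Cxcl9/Iigp1 arm and 0.36 in the Saa3 arm, and in the pattern recognition list 0.16 and 1.10. For MHC class II the medians were 0.36 and -0.79. Of 10 class II genes tested in the Cxcl9/Iigp1 arm, 0 were called higher and 0 lower. Of 8 tested in the Saa3 arm, 1 was called higher and 4 lower. Fpr2 was at -0.24 ± 0.28 in the Cxcl9/Iigp1 arm and 2.03 ± 0.17 in the Saa3 arm, and Lyz2 at -0.01 ± 0.08 in the Cxcl9/Iigp1 arm and 1.02 ± 0.06 in the Saa3 arm. H2-Ab1 was at 0.71 ± 0.16 in the Cxcl9/Iigp1 arm, short of the threshold, and -1.11 ± 0.18 in the Saa3 arm. Socs1 was at 2.15 ± 0.21 in the Cxcl9/Iigp1 arm and -0.45 ± 0.31 in the Saa3 arm. Lpl was at 0.30 ± 0.18 in the Cxcl9/Iigp1 arm and 1.06 ± 0.20 in the Saa3 arm. Other genes stood higher in both: Rtp4 was at 1.47 ± 0.26 in the Cxcl9/Iigp1 arm and 1.37 ± 0.21 in the Saa3 arm, Slfn5 at 1.49 ± 0.16 in the Cxcl9/Iigp1 arm and 1.03 ± 0.11 in the Saa3 arm, Apoe at 1.16 ± 0.12 in the Cxcl9/Iigp1 arm and 1.70 ± 0.12 in the Saa3 arm and Atf3 at 1.14 ± 0.18 in the Cxcl9/Iigp1 arm and 1.31 ± 0.16 in the Saa3 arm, each past the threshold in both arms. For cell cycle genes the medians were -0.16 and -0.55, with 0 and 19 of 26 lower.

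**Figure D5:**
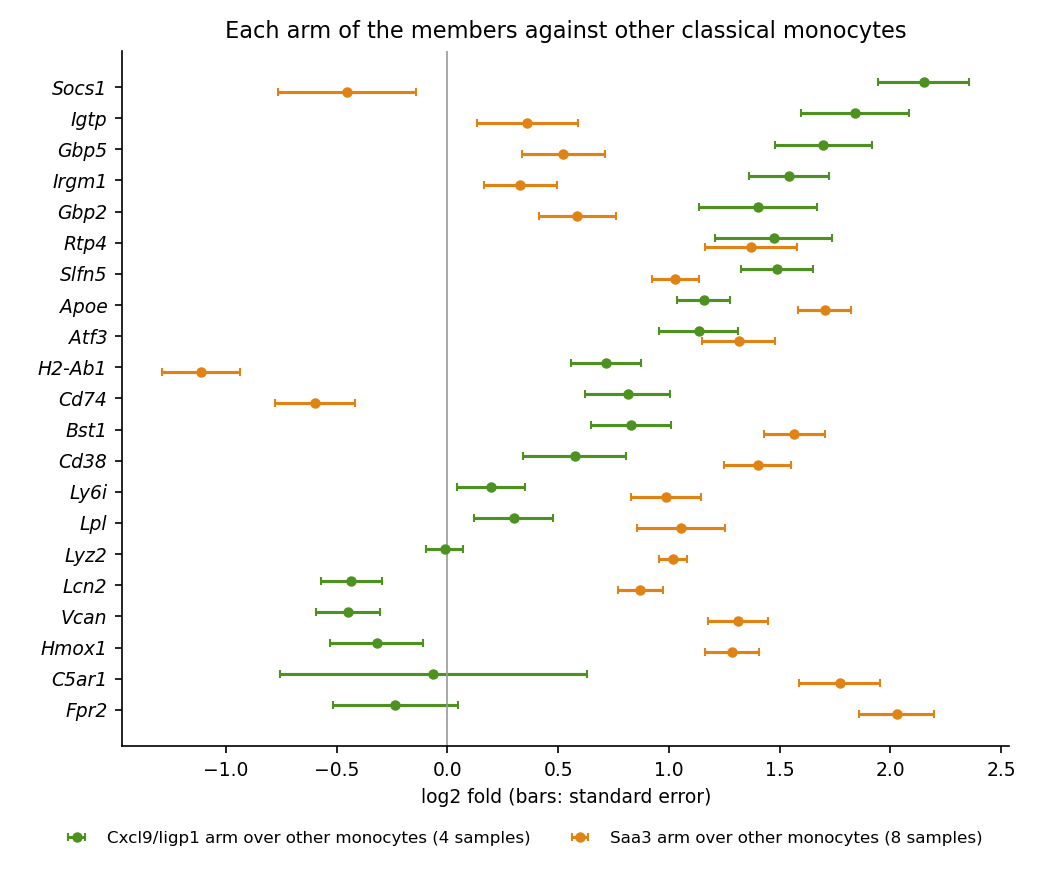
Log2 fold (x axis, bars are standard errors) of 21 genes (rows) in the Cxcl9/Iigp1 arm and in the Saa3 arm, each over other classical monocytes of the same samples. Socs1 to Gbp2 lie further right in the Cxcl9/Iigp1 arm, Rtp4 to Atf3 lie right of 0 in both, and Lyz2 to Fpr2 lie at or below 0 in the Cxcl9/Iigp1 arm and right of 0 in the Saa3 arm, where Fpr2 reaches 2.03.

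Members could not be tested between groups. Only HRO had 2 or more samples with at least 20 members, and this did not change with at least 10. HRO.6 is the only chronic sample with enough members to describe. They resembled those of HRO.9 and HRO.12 in makeup, with 93.5% Saa3 alone in HRO.6 against 96.6% and 96%. They had 163 CPM of Lrg1, 2286 CPM of Apoe and 10.2 CPM of Cd38, against 5.07 to 311 CPM of Lrg1, 28.4 to 582 CPM of Apoe and 29.4 to 124 CPM of Cd38 in HRO members. The Cd38 value of HRO.6 rests on 2 UMIs. No pool held both groups, so pool and group cannot be told apart. HR.7 members had 128 CPM of Igtp, 1051 CPM of Apoe and 15 CPM of Lrg1.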

How the data were processed

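Single-cell RNA of whole marrow was deposited by the authors as raw UMI counts per gene and cell, made with Cell Ranger 3.0.0 for 1 library and 3.1.0 for the others per the file headers. The submitters' processing notes name bcl2fastq, Cell Ranger, Seurat and mm10. Cells with at least 300 genes and under 10% mitochondrial UMIs were kept. Hashtags were assigned with HTODemux (Seurat 5.3.0), and cells with several hashtags, which are doublets, were left out of all comparisons. Counts were summed per hashtag sample and kind of cell where each had at least 20 cells, and tested with edgeR 4.0.16 (TMM, filterByExpr, quasi-likelihood test, sample as block, Benjamini-Hochberg threshold 0.05). The genes of the rule stayed in library sizes. The test was also run on simulated counts with the same spread for every gene and sample, so that run gives no error rate for these data. DESeq2 1.42.0, other scalings, filters, thresholds and leaving out samples were alternatives.

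Members and gene lists were chosen with earlier results of these data known. Named genes were the 12 largest rises and 8 largest falls among called genes with at least 20 CPM on either side, the markers, and from each list up to 4 called genes with the lowest p and up to 2 others with the highest level. Which of these the text names was chosen after their values were seen. Gene coordinates are from GENCODE M21. Some genes of the lists are not reported here by name. Binomial intervals cover counting error only, since free RNA and doublets are not in them.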

Additional observations from a re-analysis of the deposited data

Results flagged for a closer look

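Of 62 sets of values tested, which were levels and makeup of members in HRO samples and the share of members and Ifng in HRO and in WTO samples, 6 had 1 sample that stood apart from the others, where chance flags about 1 in 20. All 6 were levels in members of HRO samples. HRO.11 was the high sample for Hba-a2 (835.5 CPM), Hba-a1 (1740 CPM), Hbb-bs (4730 CPM) and Nkg7 (207.5 CPM). HRO.12 was the high sample for Cxcl2 (652.6 CPM) and Atf3 (235.1 CPM).

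HR.7, which was put in no group here, had 6.802% members among classical monocytes, above the highest WTO, HRY or WTY sample at 2.314%. Ifng over all kept cells, which no comparison between cells used, stood at 20.26 CPM in HRO.7 and 17.17 CPM in HRO.8, above the highest WTO, HRY or WTY sample at 1.099 CPM.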

How the results depend on the processing

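Members over other classical monocytes gave 952 genes higher and 609 lower. Counts of higher genes were 365 with cells thinned to 2000 UMIs, 63 within pool WBM_2, 281 within WBM_3, 179 within WBM_4 and 60 with the Cxcl9/Iigp1 arm alone, and 650 to 1045 with 1 sample left out. Counts of lower genes were 1116 with no filter, 372 with depth-matched cells, 319 with thinned cells, 16, 142 and 12 within WBM_2, WBM_3 and WBM_4, 300 within HRO, 1085 and 24 with the Saa3 arm and the Cxcl9/Iigp1 arm alone, and 303 to 727 with 1 sample left out. The Cxcl9/Iigp1 arm over the Saa3 arm gave 133 higher and 215 lower. These were 54 and 131 with DESeq2 and 58 and 69 without HRO.7 and HRO.8, with 358 higher under no filter and 213 within WBM_2. With 1 sample left out they were 51 to 138 and 94 to 211. The mean WTO share was 3.099% at 1 UMI or more.

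Some log2 folds of members over other monocytes turned round. With the Saa3 arm alone they were -0.36 for Hba-a2, -0.41 for Hba-a1, -0.57 for Hbb-bs, -0.45 for Socs1 and -0.60 for Cd74. With the Cxcl9/Iigp1 arm alone they were -0.24 for Fpr2, -0.032 for Hp, -0.43 for Lcn2, -0.063 for Cxcl2, -0.063 for C5ar1, -0.45 for Vcan, -0.013 for Lyz2, 0.20 for Flt3 and 0.71 for H2-Ab1. Within WBM_4 they were 1.01 for Cpa3, 0.91 for Ctla2a, 0.31 for Ccl4 and 0.27 for H2-Ab1, and within WBM_3 0.53 for Ptprcap and 0.11 for H2-Ab1. Cd74 was at -0.050 in depth-matched cells, -0.044 without cells with other types' transcripts and -0.19 within WBM_2, and between -0.11 (without HRO.11) and 0.28 (without HRO.9) with 1 sample left out, and H2-Ab1 between -0.45 (without HRO.11) and 0.029 (without HRO.9). The cause of these changes was not tested, beyond the fewer samples or cells that the pool, arm and thinned settings hold by construction.

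Every fit above pairs the 2 kinds of cell of the same hashtag sample. For the replicate letters of the labels, no paired analysis was possible because they number libraries of 1 pool, which hold the same hashtag samples. Arms of at least 3 UMIs, and every comparison of members between groups, gave no value. Depth limits genes of few counts in samples with under 60 members.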
